A study of Homo sapiens with 36 samples.

Results

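AP-1 and immediate early factors are described here as 10 genes, chosen by symbol: FOS, FOSB, FOSL1, FOSL2, JUN, JUNB, JUND, EGR1, ATF3 and IER2. All 10 were found among the 19014 genes of the deposited table of normalized counts, and all 10 were among the 15711 genes tested. H446 is a human small-cell lung cancer line of the subtype driven by the transcription factor NEUROD1 (SCLC-N), and all cells came from it. Control cells were clones 3, 10 and 13, which carry a non-targeting guide RNA. NEUROD1 knockout cells were clones 12, 15 and 2-1, all made with guide RNA #297, and grown like the controls in RPMI medium with fetal bovine serum. Clones received either the solvent DMSO or JQ1 at 1 µM over 24 h. JQ1 binds the bromodomains of BET proteins and so releases them from acetylated chromatin. Poly(A) RNA was sequenced in 3 biological replicate libraries per clone and treatment, 36 in all. The replicate of each comparison was the clone, with 3 clones per genotype, since libraries of a clone share its genome.

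AP-1 is a dimeric transcription factor. A FOS protein (FOS, FOSB, FOSL1 or FOSL2) pairs with a JUN protein (JUN, JUNB or JUND), and JUN proteins can also pair with each other or with ATF proteins. FOS, FOSB, JUN, JUNB, EGR1, ATF3 and IER2 are classic immediate early genes, whose transcripts rise within minutes of serum, growth factor or stress signals through MAP kinases, the serum response factor SRF and CREB, and then decay quickly. FOSL1 and FOSL2 are usually induced later, and JUND is expressed steadily in many cells. The libraries were made 24 h after the start of treatment, so the values below are levels at that time and not the early phase of induction.

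The 35 libraries used held 13282337 to 18890506 reads assigned to genes, with a median of 16176503. The remaining library, replicate 1 of knockout clone 12 with JQ1, was left out of every comparison. It held 31825795 reads, and 9 of 9 measured lung epithelium and blood markers were at their highest in it, with a summed normalized count of 80568 against 20.4 to 169 in the other libraries. NEUROD1, the targeted gene, averaged 5998 ± 580 normalized counts (SD, n = 3 clones) in control and 1.87 ± 2.93 in knockout clones with DMSO. HEXIM1, a gene that commonly rises when BET proteins are blocked, rose with JQ1 by 2.22 on the log2 scale (SE 0.17, limma adjusted p = 0.00117) in control and by 1.96 (SE 0.17, adjusted p = 0.000901) in knockout clones. The summed level of 8 measured small-cell lung cancer markers, NEUROD1 among them, was 19844 to 25189 in control and 3224 to 6125 in knockout libraries with DMSO. The list was not uniform: of 7 tested, limma called 4 lower and 2 higher in knockout clones with DMSO. YAP1 averaged 0.217 in control and 81.5 in knockout clones with DMSO, and REST 234 and 949. The sum over 8 measured fibroblast and endothelial markers, none of them at 0 throughout a group, was 7315 to 17627 in control and 25589 to 55033 in knockout libraries with DMSO. With JQ1 it was 2302 to 6322 and 7975 to 12706. Of the tested genes of this list, CDH5 (5951 ± 2180) and COL1A2 (3546 ± 1753) had the highest means in control clones with DMSO. In knockout clones with DMSO the sum was chiefly collagen genes, joined by LUM, which differed widely between clones (5437 ± 9255). COL1A2 was higher in knockout clones with DMSO (log2 difference 2.66, limma adjusted p = 0.0139) and CDH5, the endothelial cadherin, lower (-7.54, adjusted p = 0.0274), the latter called in 2 of 6 fits that left out a clone (0.00599 to 0.0897) and not with edgeR. The part of these cell type genes in the results below was not tested.

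Without NEUROD1, FOS, FOSB, FOSL1, EGR1 and ATF3 were higher and JUND was lower, whereas JUN, JUNB, FOSL2 and IER2 did not pass the test. With DMSO the count was 5 of 10 higher and 1 lower, where 6.29% of all genes tested were called higher and 6.26% lower (limma, adjusted p under 0.05). With JQ1 the same 6 genes passed in the same directions (6 of 6 shared), against 5.66% of all genes called higher and 5.57% lower. JQ1 itself raised most of the factors: 7 of 10 rose in control clones and FOSL1 fell, where 24.3% of all genes rose and 26% fell, and 6 of 10 rose in knockout clones, where 25.5% of all genes rose and 29.3% fell. The median difference over the 10 genes was 1.32 on the log2 scale for knockout against control with DMSO and 0.92 for JQ1 in control clones, beside medians of 0.01 and -0.01 over all genes. In such bulk RNA, more cells that express a gene and more RNA per cell cannot be told apart.

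**Figure D1:**
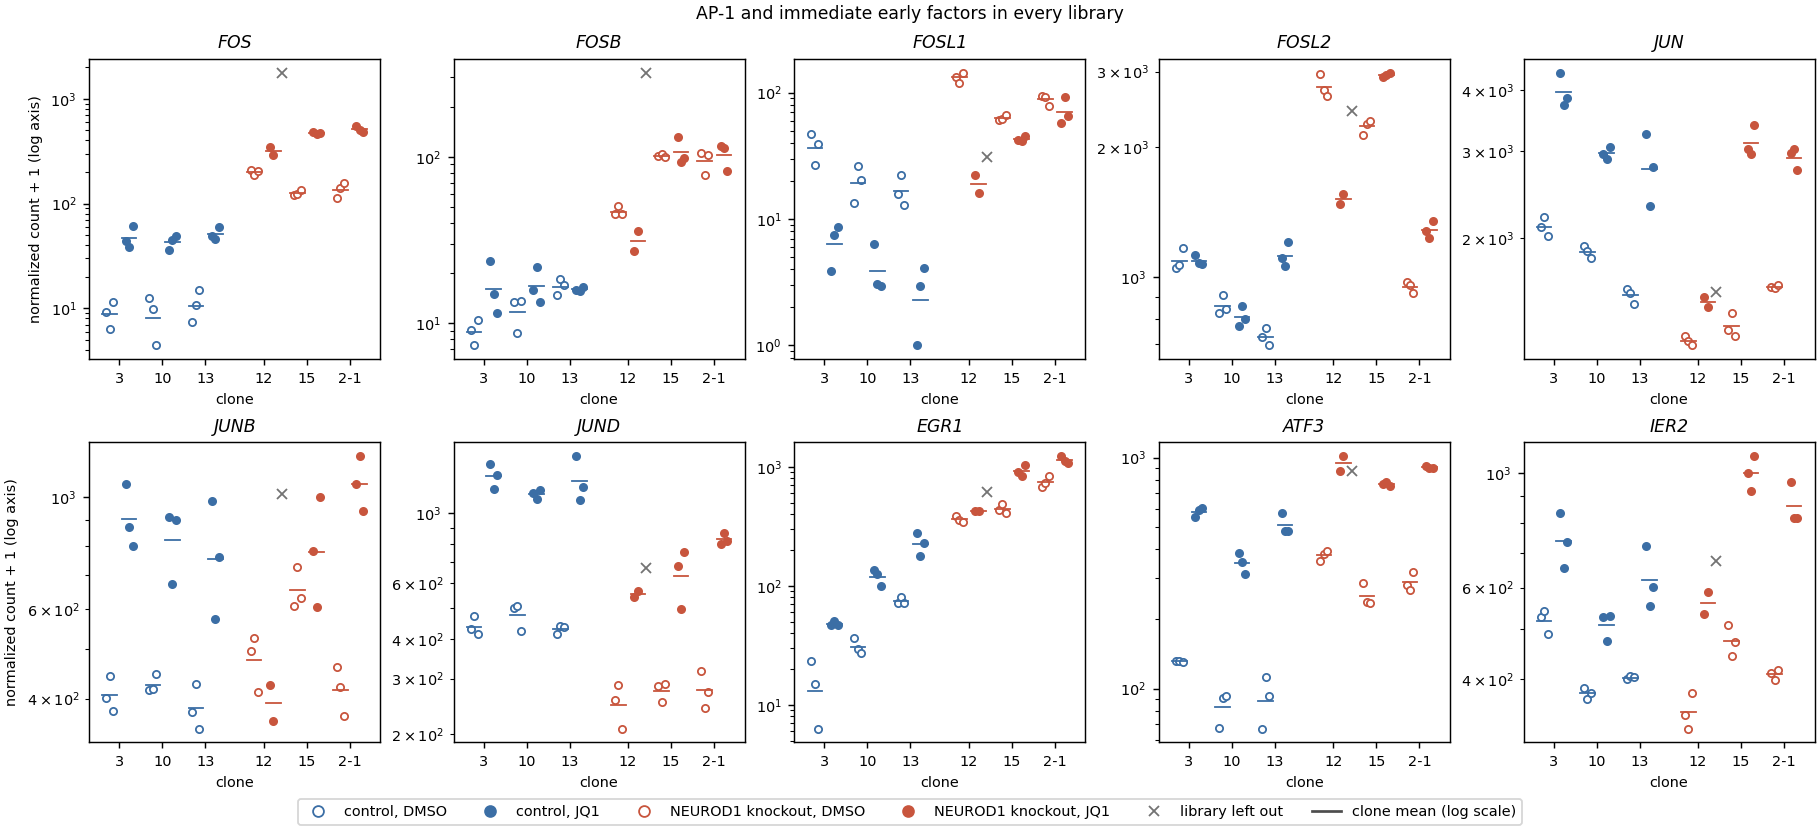
Normalized count + 1 of each of the 10 genes in every library (log axes, scaled per gene), by clone on the horizontal axis, with open symbols for DMSO, filled symbols for JQ1, blue for control and red for NEUROD1 knockout clones; horizontal bars are clone means on the log scale and the cross is the library left out. FOS libraries fall into 4 ranges that do not overlap, and JUND is the gene whose knockout libraries lie below the control libraries of the same treatment.

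The 250 bases just upstream of the start sites were searched for signal-response elements. Promoter entries were found in RefSeq (build GRCh38.p14) for 9 of the 10 genes, with 2 entries for ATF3. The 250 bases before the start site are shown for 4 genes on which the results turn, a pair that was higher without NEUROD1 (FOS, EGR1), JUND, which was lower, and JUN, which did not pass that test but rose with JQ1. Capitals mark matches to TGACG (the core of the cyclic AMP response element, CRE, bound by CREB and ATF proteins), to the full CRE TGACGTCA, to the related element TGACATCA and to the CArG box, the binding motif of SRF.
FOS, chr14:75278578-75278827, plus strand: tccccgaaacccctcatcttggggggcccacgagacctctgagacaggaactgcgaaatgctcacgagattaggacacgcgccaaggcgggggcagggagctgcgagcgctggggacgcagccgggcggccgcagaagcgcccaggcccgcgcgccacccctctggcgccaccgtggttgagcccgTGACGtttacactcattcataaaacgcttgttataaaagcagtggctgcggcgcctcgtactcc
EGR1, chr5:138465229-138465478, plus strand: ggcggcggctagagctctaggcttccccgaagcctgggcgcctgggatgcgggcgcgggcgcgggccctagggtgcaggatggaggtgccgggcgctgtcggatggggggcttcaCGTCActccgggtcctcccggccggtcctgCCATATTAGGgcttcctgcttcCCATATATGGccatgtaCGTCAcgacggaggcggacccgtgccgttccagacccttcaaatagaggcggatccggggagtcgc
JUN, chr1:58784048-58784297, minus strand: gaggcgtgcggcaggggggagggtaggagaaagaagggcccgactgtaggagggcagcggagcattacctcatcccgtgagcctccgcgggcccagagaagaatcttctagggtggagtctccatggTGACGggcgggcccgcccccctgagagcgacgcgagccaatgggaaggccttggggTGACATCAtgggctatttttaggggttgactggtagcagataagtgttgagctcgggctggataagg
JUND, chr19:18281623-18281872, minus strand: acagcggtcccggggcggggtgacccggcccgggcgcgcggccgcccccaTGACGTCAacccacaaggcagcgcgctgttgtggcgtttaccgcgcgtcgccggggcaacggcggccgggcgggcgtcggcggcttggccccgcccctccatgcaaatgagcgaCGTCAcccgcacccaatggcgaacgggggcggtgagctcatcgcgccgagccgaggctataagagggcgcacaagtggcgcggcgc
TGACG, read on both strands and including any match inside a full CRE, was found in these 250 bases in 8 of the 9 genes, all but ATF3, and in 21.2% of 35116 RefSeq promoters. In FOS it lay at positions -64 to -60, counted from the start site, and in JUN at -123 to -119. The full CRE was present only in JUND among the 9 genes, at -200 to -193, against 1.65% of all promoters. TGACATCA was present in JUN at -67 to -60 and in ATF3 at -123 to -116, and in 2.37% of all promoters. In these 250 bases EGR1 alone of the 9 genes held CArG boxes, at -105 to -96 and at -83 to -74. The motif was found in 1.16% of all promoters. The AP-1 site TGANTCA was not found in this window of any of the 9 genes (6.57% of all promoters), and CAGNTG, an E box of the kind read by NEUROD1 and its relatives, was found in ATF3 alone (42.5% of all promoters). These are matches of letters in this window, bases further upstream were not searched, and binding was not measured.

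FOS (ENSG00000170345.5), the prototype of the family and a short-lived partner of JUN, stood higher in every knockout library than in any control library. Its normalized counts in the 9 control libraries with DMSO were 3.43 at the lowest, 8.78 at the median and 14 at the highest, and in the 9 knockout libraries 111, 140.0 and 210.2. With JQ1 the control libraries ran from 35 over 45.1 to 59.5, and the 8 knockout libraries from 287 over 478 to 545. The 4 groups did not overlap, and their order was control with DMSO, control with JQ1, knockout with DMSO and knockout with JQ1. The clone means were 8.66 ± 1.19 in control and 154 ± 41.0 in knockout clones with DMSO (SD, n = 3), a log2 difference of 4.05 (SE 0.32, limma adjusted p = 0.000643) or 16.5-fold. With JQ1 the difference was 3.18 (SE 0.26, adjusted p = 0.000459) or 9.03-fold. JQ1 raised FOS by 2.37 on the log2 scale in control (SE 0.27, adjusted p = 0.00162) and by 1.49 in knockout clones (SE 0.27, adjusted p = 0.00573). These 4 calls for FOS held in 6 of 6 fits that each left out 1 clone. The control level with DMSO rested on 3 to 14 reads per library, 79 reads over the 9 libraries, so the size of the ratio is imprecise: with a pseudocount of 10 in place of 1 the difference with DMSO was 3.12.

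FOSB, a close relative of FOS that is induced by the same signals, was likewise higher without NEUROD1 but was not called in either JQ1 comparison. Its counts with DMSO were 6.38, 12.4 and 17.4 (lowest, median, highest of 9 libraries) in control and 44.1, 98.5 and 105 in knockout libraries. With JQ1 they were 10.6, 14.8 and 22.8 in control and 26.2, 94.7 and 130 (8 libraries) in knockout libraries. The genotypes did not overlap under either treatment, and knockout clone 12 supplied the lowest knockout values in both. The log2 difference was 2.67 with DMSO (SE 0.43, limma adjusted p = 0.0104) and 2.10 with JQ1 (SE 0.51, adjusted p = 0.0420). The FOSB call with JQ1 held in 1 of the 6 fits that left out a clone, the one without clone 12 (adjusted p from 0.00422 to 0.133), and was lost without replicate 3 of knockout clone 12 with JQ1 (0.0607); on the FPKM scale the difference with DMSO was 1.79. The change with JQ1 was 0.43 in control (adjusted p = 0.125) and -0.13 in knockout clones (adjusted p = 0.609).

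FOSL1, which encodes FRA1, was the member that JQ1 lowered. Control libraries with DMSO held 12.0, 21.3 and 45.8 normalized counts (lowest, median, highest), and control libraries with JQ1 held 0, 2.84 and 7.68. Knockout libraries held 59.4, 91.7 and 143 with DMSO and 15.2, 42.7 and 91.3 with JQ1. No control library with JQ1 reached the lowest control library with DMSO, while knockout libraries of the 2 treatments overlapped. The fall with JQ1 was -2.57 on the log2 scale in control clones (SE 0.48, limma adjusted p = 0.00673) and was called in 6 of 6 fits that left out a clone. The control libraries with JQ1 held 0 to 8 reads each and 31 in all, so the size of this fall depends on the pseudocount, and with 10 it was -1.28. In knockout clones the change was -1.23 (SE 0.48, adjusted p = 0.0728), with -2.79 in clone 12, -0.56 in clone 15 and -0.33 in clone 2-1. Knockout clones were higher by 1.99 with DMSO (SE 0.43, adjusted p = 0.0291) and by 3.33 with JQ1 (SE 0.62, adjusted p = 0.0167), calls for FOSL1 that held in 2 and 3 of the 6 fits that left out a clone (adjusted p from 0.0316 to 0.113 and from 0.0118 to 0.0674).

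FOSL2, which encodes FRA2, was the most abundant FOS family transcript per length in every clone but differed widely between knockout clones. With DMSO its counts were 692 to 1163 in control libraries, with a median of 840.3, and 918 to 2965 in knockout libraries, with a median of 2265. Among knockout clones, clone 2-1 averaged 948, inside the control range, clone 15 averaged 2237 and clone 12 averaged 2768. The log2 difference between genotypes was 1.04 (SE 0.40, limma adjusted p = 0.148) with DMSO and 0.85 (SE 0.32, adjusted p = 0.143) with JQ1. Without clone 2-1 the difference with DMSO was 1.5 and was called (adjusted p = 0.0114, against 0.0114 to 0.334 over the 6 fits that left out a clone), and DESeq2 called it under both treatments (adjusted p = 0.0266 and 0.0476). With JQ1, FOSL2 changed by -0.87 in clone 12, 0.40 in clone 15 and 0.44 in clone 2-1 and by -0.09 to 0.63 in control clones.

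JUN, the main partner of FOS, was not called between genotypes and was higher with JQ1 than with DMSO in all 6 clones. Its counts with DMSO were 1468, 1879 and 2209 (lowest, median, highest) in control and 1209, 1299 and 1602 in knockout libraries, with overlap. With JQ1 they were 2322, 3064 and 4333 in control and 1446, 2964 and 3399 in knockout libraries. The 9 control libraries with JQ1 all lay above the 9 with DMSO, whereas in knockout libraries the treatments overlapped through clone 12. The rise of JUN was 0.81 in control (SE 0.18, limma adjusted p = 0.0118) and 0.79 in knockout clones (SE 0.18, adjusted p = 0.0118) on the log2 scale. The call in control clones was lost without clone 3 (adjusted p = 0.0614) or clone 13 (0.0560), and that in knockout clones without clone 2-1 (0.0523), where the lowest values over the 6 fits were 0.00312 and 0.00496. The difference between genotypes was -0.41 with DMSO (adjusted p = 0.183) and -0.42 with JQ1 (adjusted p = 0.426).

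JUNB, which can dampen transcription by JUN on some promoters, rose with JQ1 in control clones. Its counts were 348 to 445 in control libraries with DMSO and 573 to 1059 with JQ1, with medians of 414 and 872 and no overlap. In knockout libraries they were 368 to 726 with DMSO and 359 to 1203 with JQ1, with medians of 496 and 858. The log2 change was 1.03 in control (SE 0.28, limma adjusted p = 0.0261) and 0.44 in knockout clones (SE 0.28, adjusted p = 0.229), where it was -0.28 in clone 12, 0.25 in clone 15 and 1.35 in clone 2-1. The JUNB call in control clones was kept without each knockout clone and lost without each control clone (adjusted p from 0.00329 to 0.106). Between genotypes the log2 difference was 0.32 with DMSO (adjusted p = 0.362) and -0.26 with JQ1 (adjusted p = 0.686).

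JUND, the steadily expressed JUN protein, was the member that was lower without NEUROD1. Control libraries with DMSO held 412, 435 and 508 normalized counts (lowest, median, highest) and knockout libraries 207, 271 and 315. With JQ1 the values were 1096, 1192 and 1513 in control and 496, 717 and 865 in knockout libraries. Neither treatment brought the genotypes to overlap, and in each genotype all libraries with JQ1 lay above all with DMSO. The difference between genotypes was -0.75 on the log2 scale with DMSO (SE 0.15, limma adjusted p = 0.0227), which is 1.69-fold lower, and -0.90 with JQ1 (SE 0.18, adjusted p = 0.0231). It was called in 3 and in 2 of the 6 fits that left out a clone (adjusted p from 0.0406 to 0.123 and from 0.0140 to 0.0787), although its value stayed between -0.78 and -0.70 and between -1.06 and -0.77. JQ1 raised JUND by 1.47 in control (SE 0.12, adjusted p = 0.00117) and by 1.32 in knockout clones (SE 0.12, adjusted p = 0.000985), with single clones between 1.16 and 1.59.

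EGR1 (ENSG00000120738.7), a zinc finger factor induced with FOS through SRF, was higher without NEUROD1 by nearly as much as FOS. With DMSO its counts were 5.30, 28.3 and 80.3 (lowest, median, highest) in control and 342, 436 and 835 in knockout libraries. With JQ1 they were 45.5, 124 and 279 in control and 424, 973 and 1229 in knockout libraries. Every knockout library lay above every control library of either treatment. The control clones stood apart from each other in the same order under both treatments, with clone means of 13.8 in clone 3, 30.1 in clone 10 and 73.9 in clone 13 with DMSO and 47.1, 119 and 228 with JQ1. The log2 difference between genotypes was 3.99 with DMSO (SE 0.64, limma adjusted p = 0.0101) and 2.82 with JQ1 (SE 0.60, adjusted p = 0.0269). For EGR1 the call with DMSO held in 6 of 6 fits that left out a clone, and that with JQ1 in 2 of 6 (adjusted p from 0.0220 to 0.0874). JQ1 raised EGR1 by 1.81 in control (SE 0.16, adjusted p = 0.00119) and by 0.64 in knockout clones (SE 0.16, adjusted p = 0.0192), the latter called in 4 of 6 such fits (adjusted p from 0.0129 to 0.0705).

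ATF3, a stress-induced partner of JUN proteins, rose both without NEUROD1 and with JQ1. Its counts with DMSO were 66.0, 91.9 and 131 (lowest, median, highest) in control and 233, 285 and 394 in knockout libraries. With JQ1 they were 312, 478 and 606 in control and 755, 888 and 1013 in knockout libraries. Thus control libraries with JQ1 overlapped knockout libraries with DMSO, and no other pair of groups overlapped. The log2 difference between genotypes was 1.61 with DMSO (SE 0.27, limma adjusted p = 0.0115) and 0.89 with JQ1 (SE 0.22, adjusted p = 0.0452). The first held in 5 of 6 fits that left out a clone, being lost without control clone 10 (adjusted p = 0.0564, range 0.0182 to 0.0564). The second held in none of them (0.0511 to 0.133), nor without replicate 1 of control clone 3 (0.0512) or of control clone 10 (0.0501) with JQ1, nor with edgeR (0.0566). JQ1 raised ATF3 by 2.25 in control (SE 0.15, adjusted p = 0.00117) and by 1.53 in knockout clones (SE 0.15, adjusted p = 0.00110).

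IER2, which encodes a small nuclear protein induced by serum, was likewise not called between genotypes but rose with JQ1 in both. With DMSO its counts were 365 to 540.2 in control and 319 to 507 in knockout libraries, with medians of 402 and 409. With JQ1 they were 472 to 835 in control and 534 to 1076 in knockout libraries, with medians of 601 and 869. Control libraries of the 2 treatments overlapped and knockout libraries did not. The rise was 0.53 on the log2 scale in control (SE 0.09, limma adjusted p = 0.00578) and 0.95 in knockout clones (SE 0.09, adjusted p = 0.00108). The difference of IER2 between genotypes was -0.08 with DMSO (adjusted p = 0.85) and 0.35 with JQ1 (adjusted p = 0.437).

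**Figure D2:**
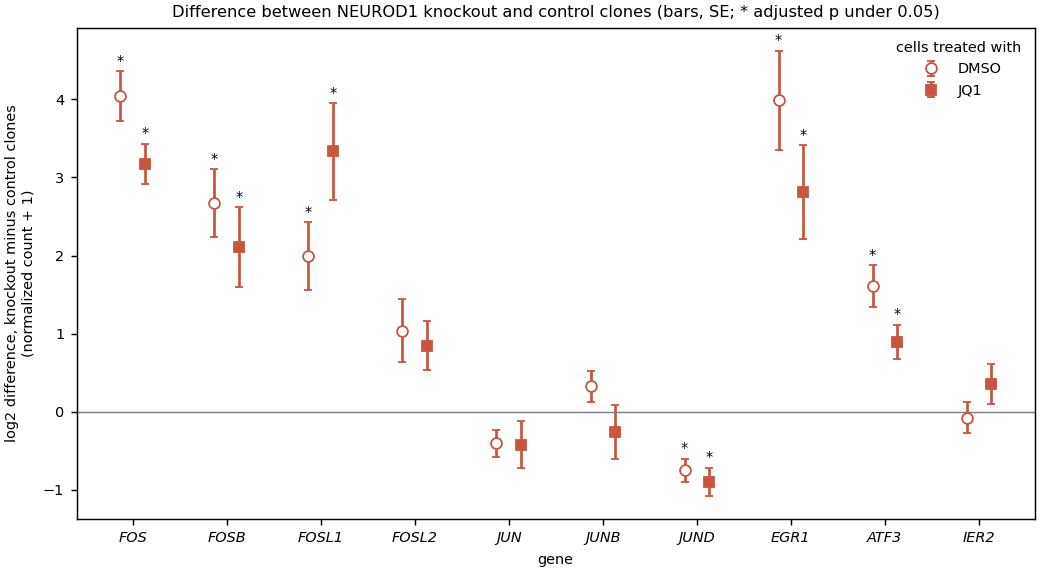
Difference between NEUROD1 knockout and control clones for each gene on the log2 (normalized count + 1) scale, with DMSO (open circles) and with JQ1 (filled squares); bars are standard errors from limma with 3 clones per genotype and stars mark an adjusted p under 0.05. FOS and EGR1 are highest with DMSO, at 4.05 and 3.99, and JUND is below 0 under both treatments, at -0.75 and -0.90.

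Whether the response to JQ1 depended on NEUROD1 was tested as the difference between the genotypes' responses. By limma 0 of the 10 genes passed at an adjusted p under 0.05, and 3 had an unadjusted p under 0.05 (EGR1, ATF3 and IER2). Of all genes tested, 0.719% were called with a higher and 0.777% with a lower response in knockout clones. On reads summed per clone and treatment, edgeR called 2 of the 10 genes and DESeq2 called 3. EGR1 rose less in knockout clones, by a log2 difference of -1.17 (SE 0.23, limma adjusted p = 0.0698). It was called by edgeR (0.0342) and by DESeq2 (0.000376), but in 0 of the 6 limma fits that left out a clone (0.0867 to 0.203). ATF3 differed by -0.72 (SE 0.22, limma adjusted p = 0.122) and was also called by edgeR (0.0343) and DESeq2 (0.00190). IER2 differed by 0.43 in the other direction (SE 0.13, limma adjusted p = 0.131) and was called by DESeq2 (0.0457). The values for FOS were -0.87 (SE 0.39, adjusted p = 0.230), for JUNB -0.59 (SE 0.40, adjusted p = 0.410) and for FOSL1 1.34 (SE 0.68, adjusted p = 0.280), so a difference in response was not shown for these genes.

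Clone 12 stood out among the knockout clones. Its response to JQ1 was the lowest of the 3 knockout clones for 10 of the 10 genes, where it was the lowest for 34.4% of all genes tested. For FOS it was 0.64 on the log2 scale, beside 1.92 in clone 15 and 1.91 in clone 2-1. For EGR1 it was 0.24, beside 1.06 and 0.61, and for JUN 0.26, beside 1.24 and 0.87. The median response over the 10 genes was 0.25 in clone 12, 1.07 in clone 15 and 0.98 in clone 2-1, and 0.81 to 1.03 in control clones. HEXIM1 did not share this order: it rose 4.57-fold in clone 12, 3.30-fold in clone 15 and 3.93-fold in clone 2-1. With DMSO, clone 12 had the highest mean of the knockout clones for 4 of the 10 genes (FOS, FOSL1, FOSL2 and ATF3) and the lowest for 5 (FOSB, JUN, JUND, EGR1 and IER2). Its JQ1 mean rests on 2 libraries, and the library left out belongs to the same clone and treatment. This pattern was noticed after the values were seen. Without clone 12, FOS rose with JQ1 by 1.92 in knockout clones (limma adjusted p = 0.00466), and the difference in response was -0.45 for FOS (adjusted p = 0.343), -0.97 for EGR1 (0.0962) and 2.13 for FOSL1 (0.0509).

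**Figure D3:**
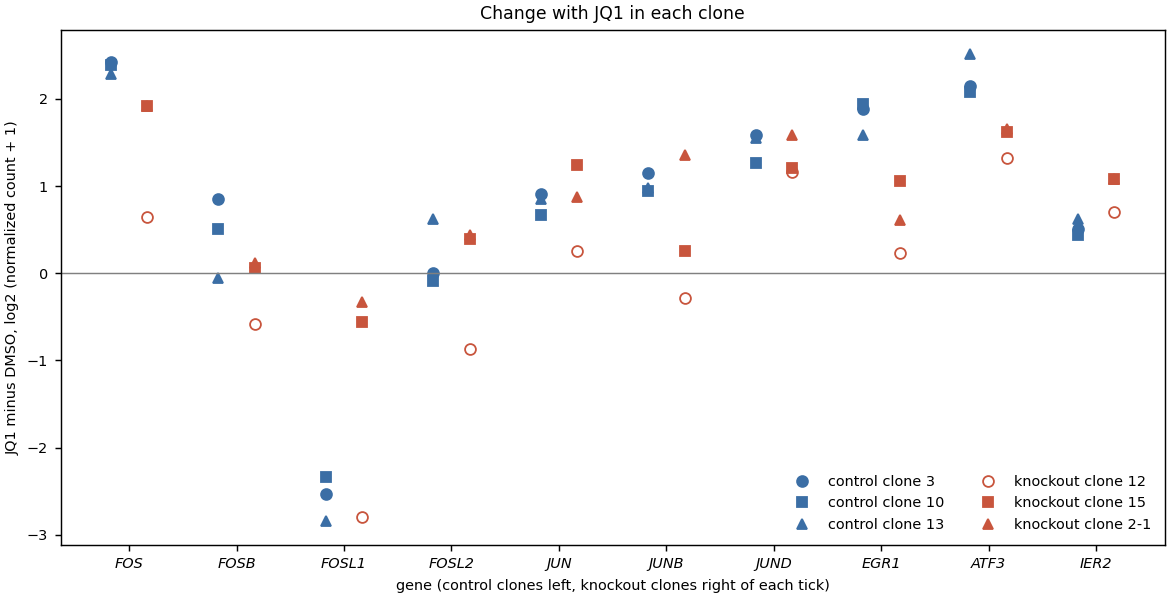
Change with JQ1 in each clone, as the mean of log2 (normalized count + 1) with JQ1 minus that with DMSO, for control clones (blue) and knockout clones (red, with clone 12 open); each symbol is 1 clone. Knockout clone 12 is the lowest of the 3 knockout clones for every gene, and FOSL1 lies below 0 in all 6 clones.

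Clones of a genotype also differed among themselves before any drug. With DMSO, an F test over single libraries called differences among the 3 control clones for 7 of the 10 genes, where 63.9% of all genes were called, and among the 3 knockout clones for 9, where 78.3% of all genes were called. FOS, JUNB and JUND were the genes not called among control clones (limma adjusted p = 0.729, 0.303 and 0.233), and JUND among knockout clones (0.493). Calls among control clones were fragile for the low genes. FOSB was lost without any of replicates 1 or 2 of clone 3, 1 of clone 10 or 1, 2 and 3 of clone 13, with adjusted p up to 0.120. FOSL1 was lost without replicates 1 or 3 of clone 3 or 1 or 3 of clone 13 (up to 0.116), and ATF3 without any replicate of clone 3 (up to 0.0798). JUND was called without replicate 3 of clone 10 (0.0334). Without replicate 1 of clone 3 the count for control clones was 4 of 10.

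Read per length, as FPKM, the make-up of the FOS family shifted and that of the JUN family kept JUN in the lead. In control clones with DMSO, FOSL2 held 87.1% ± 1.64 (SD, n = 3 clones) of the summed FOS family level, FOSL1 7.51% ± 1.20, FOS 2.71% ± 1.46 and FOSB 2.69% ± 1.28. In knockout clones with DMSO the FOS share was 14.1% ± 4.35 and the FOSL2 share 70.6% ± 10.3, and with JQ1 they were 33.6% ± 7.57 and 59.0% ± 10.3. Control clones with JQ1 stood at 9.20% ± 0.188 for FOS. The FOS share ranged from 1.66% to 4.38% in control and from 10.2% to 18.8% in knockout clones with DMSO, without overlap. The family sum was 15.8 ± 3.52 FPKM in control and 42.2 ± 14 in knockout clones with DMSO, with FOSL2 alone at 40.3 FPKM in clone 12, 35.8 in clone 15 and 15.8 in clone 2-1. In the JUN family, JUN held 51.8% ± 4.29 of 72.4 ± 6.16 FPKM in control and 47.5% ± 6.73 of 58.6 ± 8.66 FPKM in knockout clones with DMSO. JUND held 25.9% ± 3.29 and 18.3% ± 0.923 of those sums. With JQ1 the JUN family sum was 144 ± 18.3 FPKM in control and 101 ± 35 in knockout clones.

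**Figure D4:**
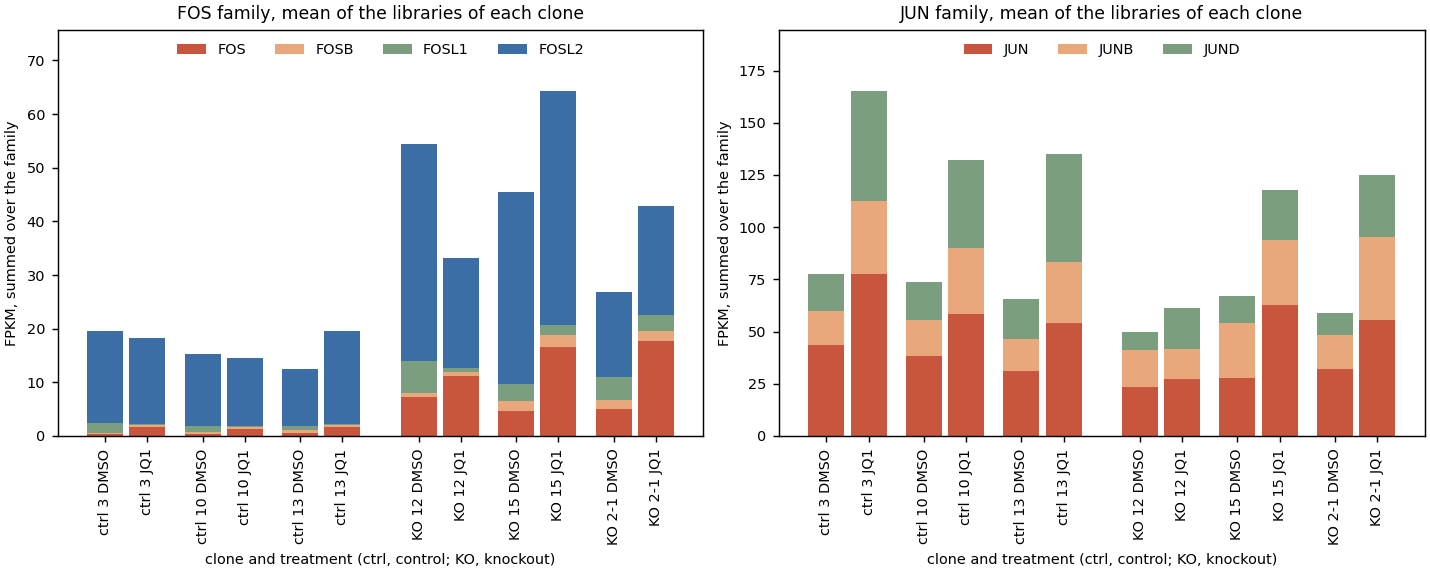
Summed FPKM of the FOS family (left) and the JUN family (right) in each clone and treatment, as stacked means of the libraries of a clone. FOSL2 makes up most of the FOS family in every control clone, FOS takes 10.2% to 18.8% of it in knockout clones with DMSO, and JUN family sums are higher with JQ1 than with DMSO in all 6 clones.

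Other immediate early genes were followed through a list of 34 genes, of which 31 were tested. Between genotypes with DMSO, 4 were higher (CTGF, EGR3, ZFP36L1 and ZFP36L2) and 4 lower (ARC, CSRNP1, GADD45G and IER5) in knockout clones, and 23 did not pass, with a median difference of 0.71. Of all genes tested, 6.29% were called higher and 6.26% lower. ZFP36L1, which encodes an RNA-binding protein that destabilises AU-rich transcripts, was at 512 ± 118 normalized counts in control and 1912 ± 825 in knockout clones (log2 difference 1.84, limma adjusted p = 0.0135). IER5 and CSRNP1 were lower, by -1.27 (adjusted p = 0.0342) and -1.17 (adjusted p = 0.0409). With JQ1, 8 were higher and GADD45G was lower in knockout clones, beside 5.66% and 5.57% of all genes. CTGF, a target of YAP and SRF, stood at 14 ± 8.11 in control and 336 ± 195 in knockout clones with JQ1. JQ1 raised 24.3% of all genes in control and 25.5% in knockout clones, and lowered 26% and 29.3%. Of the 31, it raised 15 in control clones and 13 in knockout clones, where IER5L fell. Among these, BTG2, an antiproliferative factor, rose by 0.86 (adjusted p = 0.00121) in control and 0.81 (adjusted p = 0.00112) in knockout clones, and HOMER1, a synaptic scaffold, by 0.53 (0.00181) and 1.04 (0.000883). RHOB, a small GTPase, rose by 1.58 in control clones (adjusted p = 0.00117), and the difference in its response, knockout minus control, was -1.05 (adjusted p = 0.0395). In the fits that each left out 1 of the 6 clones, that difference for RHOB was called in 0 (adjusted p from 0.0621 to 0.136), CTGF with DMSO in 2 (0.0302 to 0.0962), IER5 in 2 (0.0293 to 0.126) and CSRNP1 in 1 (0.0450 to 0.135).

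Of 19 tested partners of AP-1 from the wider bZIP family, 3 were higher with DMSO in knockout clones: CEBPB (177 ± 57.3 against 470.2 ± 66.6 normalized counts), DDIT3 (164 ± 12.0 against 344 ± 80.0), which encodes the stress factor CHOP, and MAFK (192 ± 23.4 against 324 ± 30.0), with limma adjusted p = 0.0180, 0.0252 and 0.0409. The share of all genes called higher was 6.29%. Without 1 of the 6 clones the calls for CEBPB, DDIT3 and MAFK held in 3, 2 and 0 fits, the last with adjusted p from 0.0534 to 0.149. In JQ1-treated cells DDIT3 and MAFK were higher in knockout clones (adjusted p = 0.0277 and 0.0497), calls that held in 3 and 1 of the 6 fits. For MAFK with JQ1 the call held in 23 of 35 fits that left out a library and was lost with edgeR, TMM and FPKM. JQ1 raised 5 of the 19 in control clones, among them ATF5, CEBPB, DDIT3 and MAFA, and lowered ATF1 and BATF3. In knockout clones it raised 6 and lowered ATF1, BATF3 and JDP2. Of all genes, 24.3% rose and 26% fell in control clones, and 25.5% and 29.3% in knockout clones. The 5 of 19 raised in control clones thus lay near the share of all genes. ATF5, a stress-regulated factor, rose by 1.55 (adjusted p = 0.00117) and 0.93 (0.00175), and ATF1, a relative of CREB, fell by 0.52 (0.00422) and 0.79 (0.00122).

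Upstream of the immediate early genes stand MAP kinases and the cofactors of SRF. Of 23 tested, 1 was higher and 2 lower in knockout clones with DMSO, beside 6.29% and 6.26% of all genes. These were RPS6KA3, which encodes the ERK-activated kinase RSK2 (log2 difference 0.61, limma adjusted p = 0.0480), MAP2K6, a kinase of p38 (-1.26, 0.0161), and MAPK8, which encodes JNK1, a kinase of JUN (-1.17, 0.0317). In the 6 fits that left out a clone these calls held in 0 for RPS6KA3 (0.0541 to 0.178), 3 for MAP2K6 and 1 for MAPK8 (0.00763 to 0.109). With JQ1, MAP2K6 was lower in knockout clones in 6 of 6 such fits (-1.76, adjusted p = 0.00272). MAPK7 was also lower (-0.66, adjusted p = 0.0470), but held in 1 of 6 (0.0431 to 0.196) and was lost with edgeR. JQ1 raised 11 and lowered 3 of the 23 in control clones (ELK3, MAP2K5 and MAPK3), and raised 12 and lowered 4 in knockout clones (the same 3 and MAP2K6). Of all genes, 24.3% rose and 26% fell in control clones, and 25.5% and 29.3% in knockout clones. MAPK3, which encodes the kinase ERK1, fell by 1.36 in control (limma adjusted p = 0.00119) and fell by 1.45 in knockout clones (0.000898). Of 17 tested genes of ERK output and feedback, 1 was higher and 1 lower in knockout clones with DMSO. Higher was SPRED1, an inhibitor of the pathway (382 ± 24.8 against 1489 ± 407 normalized counts, adjusted p = 0.00372). Lower was DUSP5, a nuclear ERK phosphatase (881 ± 567 against 80.9 ± 28.0, adjusted p = 0.00733). These 2 calls of 17 with DMSO lay near the shares of all genes, 6.29% higher and 6.26% lower. With JQ1, 2 of the 17 were higher and 3 lower in knockout clones, beside 5.66% and 5.57% of all genes. SPRED1 and DUSP5 were again among them. PHLDA1 was higher (log2 difference 2.02, limma adjusted p = 0.0134), called in 6 of 6 fits that left out a clone. CCND1 was lower (-2.04, adjusted p = 0.0370), called in 2 of 6 such fits and not with edgeR. Of the 17, JQ1 raised 3 in control clones (DUSP1, DUSP5 and ETV5) and 3 in knockout clones (DUSP1, DUSP2 and DUSP5). Lowered were 5 and 6, DUSP4, ETV1, ETV4, SPRED3 and SPRY1 in both and CCND1 in knockout clones. The shares of all genes that rose and fell with JQ1 are those given above. DUSP1, a phosphatase and itself an immediate early gene, rose by 0.92 (adjusted p = 0.00204) and 1.74 (0.000883), and DUSP4 fell by 1.36 (0.00169) and 1.52 (0.00118). CCND1, a cyclin, differed in its response by -1.13, knockout minus control (adjusted p = 0.0499), a call made in 0 of the 6 fits that left out a clone (0.0514 to 0.167).

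Of 16 tested textbook targets of AP-1, 8 were higher and 1 lower in knockout clones with DMSO, beside 6.29% and 6.26% of all genes. The median difference was 2.38 beside 0.01 over all genes. TGFB1, a cytokine, stood at 7.96 ± 3.91 normalized counts in control and 828 ± 111 in knockout clones (limma adjusted p = 0.000122) and TIMP1, a protease inhibitor, at 3.75 ± 1.45 and 1525 ± 1682 (0.00140). FN1, fibronectin, stood at 2810.4 ± 938 and 113300 ± 74283 (0.00185). Several of these are also markers of mesenchymal cells, as are the collagen genes given above. With JQ1, PLAU rose and 5 fell, among them KRT80, LIF, TGFB1 and TIMP1, in control clones, and 2 rose, MT2A among them, and 7 fell in knockout clones, with medians of -0.26 and -0.60. Of all genes, 24.3% rose and 26% fell in control clones, and 25.5% and 29.3% in knockout clones. In control clones PLAU and TGFB1 were each called in 4 of 6 fits that left out a clone. TGFB1 was lost with edgeR and DESeq2, and TGFB1 and TIMP1 were near the floor there (5.48 and 2.59 counts with JQ1). LIF, a cytokine, fell by 4.25 in control clones (adjusted p = 0.00488) and KRT80, a keratin, fell by 2.94 (0.0170, called in 3 of 6 fits that left out a clone) there and fell by 4.10 in knockout clones (0.00493), whereas MT2A, which encodes a metallothionein, rose by 1.42 in knockout clones (0.00503). Of 11 tested genes of the ATF4 stress response, which also drives ATF3, 3 were lower in knockout clones with DMSO, namely VLDLR (-2.67, 0.00450), ASNS (-1.04, 0.0115) and PHGDH (-1.08, 0.0280, called in 2 of 6 fits that left out a clone). JQ1 raised ASNS and SESN2 and lowered SLC7A11 and TRIB3 in both genotypes. For SLC7A11 in knockout clones (adjusted p = 0.0215) the call held in 3 of 6 such fits (0.00635 to 0.0884). It was lost with the left-out library included. In control clones JQ1 also raised PSAT1 and lowered VLDLR, whose response differed between genotypes (1.16, adjusted p = 0.0282, called in 1 of 6 such fits).

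Genes whose pattern was most like that of a member were sought over the 35 libraries, which share clones and treatments, by Pearson's r of log2 values. Closest to FOS were USP53 (r = 0.975), SAT1 (0.974) and PDK3 (0.969). SAT1, which encodes the enzyme that acetylates spermidine, averaged 124 normalized counts in control and 7318 in knockout clones with DMSO, and 777 and 19584 with JQ1, the same order as FOS. Closest to EGR1 were KANK2 (0.965), EPS8 (0.959) and WDR31 (0.958), and closest to JUN were TSEN54 (0.927), FBXO31 (0.910) and ERCC2 (0.908). Among the members, FOS was most like EGR1 (0.902), ATF3 (0.842) and FOSB (0.838), and JUN was most like JUND (0.885) and IER2 (0.781). FOSL1 and JUND had the lowest value, -0.797. These coefficients describe the 35 libraries and carry no test.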

How the data were processed

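Gene expression was measured by poly(A) RNA sequencing (TruSeq Stranded mRNA, per the labels' protocols) in 36 libraries of 6 H446 clones. The submitters' processing notes name cutadapt, STAR, RSEM and the human build hg19, with no versions. The deposited signal is the authors' DESeq2-normalized count per gene, corrected for library size but not for gene length, and the second deposited table gives the authors' FPKM values, scaled by gene length and library size. Whole reads were recovered from the deposited normalized counts (100% of values whole within 1e-06), and gave the depth and the input for edgeR and DESeq2; in 2 columns the size factor is too close to 1 for the step to be told from a read.

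The 10 genes and all gene lists were chosen with earlier results of these data known. Tested were the 15711 of 19014 genes that reached 10 normalized counts in 9 or more of the 35 libraries; the filter was met by FOS in 3, FOSB in 5 and EGR1 in 8 of the 9 control libraries with DMSO, and by FOSL1 in none of the control libraries with JQ1. The mean of log2(normalized count + 1) of each clone and treatment was compared with limma 3.58.1 (R 4.3.3, trended prior variance), 3 against 3 clones for genotype, and for JQ1, and for the difference in response, on each clone's change from DMSO to JQ1, with 1 spread over 6 clones. Differences among clones were tested by limma's F test over single libraries. All p-values are two-sided, adjusted by the Benjamini-Hochberg method over 15711 genes, with a threshold of 0.05, and are from limma unless another tool is named. Fold changes on this scale understate changes of low genes. Replicate libraries differed by more than sampling noise (chi-square per degree of freedom 2.19 to 14; 296 and 341 for the library left out). The tests of named list genes and the counts of list genes were recomputed under the same alternatives, a step added after seeing the data. Alternatives were pseudocounts of 0.5 and 10, no filter or a mean of at least 50, library totals or TMM scaling, FPKM, no trend, edgeR 4.0.16 and DESeq2 1.42.0 on reads summed per clone and treatment, the library left out put back, each clone, replicate number or library left out, single libraries, and a replicate block. The limma fit was also run on simulated data with known changes, whose outcome is not reported here. The simulation used the spread of control clones and changed only genes with a mean of at least 50 in control clones with DMSO. It does not cover the low genes or the spread of knockout clones.

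Named genes were the 10 members, NEUROD1 and HEXIM1, up to 4 genes per list with the smallest adjusted p and a mean of at least 50, and the 3 genes most like FOS, JUN and EGR1. Other genes of short counts were named after their values were seen. Some list genes that are counted are not reported here by name. Motifs were searched in RefSeq promoters, and no coordinates of the deposited tables were used.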

Additional observations from a re-analysis of the deposited data

Results flagged for a closer look

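The left-out library, replicate 1 of knockout clone 12 with JQ1, held 1773 normalized counts of FOS and 319 of FOSB, above the highest of the other 35 libraries (545 and 130). Replicates 2 and 3 of the same clone and treatment held 287 and 342 of FOS and 26.2 and 35 of FOSB. The other 8 genes lay within the range of the 35 libraries. The part of the lung and blood transcripts of this library in these values was not tested.

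RHOB, CCND1 and VLDLR were called for a different response to JQ1 in the 2 genotypes, by the limma test of the difference itself. RHOB rose less in knockout clones, by -1.05 on the log2 scale (adjusted p = 0.0395), with rises of 1.32 to 1.80 in control and 0.46 to 0.61 in knockout clones. CCND1 differed by -1.13 (adjusted p = 0.0499), at -0.26 to -0.04 in control and -1.65 to -1.12 in knockout clones. VLDLR differed by 1.16 (adjusted p = 0.0282), at -1.13 to -0.996 in control and -0.09 to 0.22 in knockout clones. Leaving out 1 of the 6 clones kept the call in 0 fits for RHOB, 0 for CCND1 and 1 for VLDLR (adjusted p 0.0621 to 0.136, 0.0514 to 0.167 and 0.0389 to 0.107). The CCND1 call held in 5 of 35 fits that left out a library, where those for RHOB and VLDLR held in all 35. RHOB and CCND1 were lost without a filter and on FPKM, and CCND1 also with a pseudocount of 0.5, equal library totals or no trend. All 3 calls were lost with the left-out library included. The Dixon test was applied to the highest and the lowest library of 40 groups, formed by gene, genotype and treatment. It flagged none of them. Chance alone would flag about 1 of 20 groups if libraries were independent draws from a single normal population. That rate does not hold here, since each group pools libraries of different clones. With DMSO these clones differed for most of the AP-1 and immediate early factors. Spread between clones can hide a single deviant library, so the lack of flags does not show that none deviated.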

How the results depend on the processing

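Of the 1476 recomputed values for single members, 1331 kept their direction and their side of the threshold, 69 kept the direction but missed the threshold, 50 newly passed it and 26 turned sign, 0 of these past the threshold under either setting. This count includes the F tests among clones, which have no direction and were judged by the threshold alone. It also includes the fits that treat single libraries as replicates. For knockout against control with DMSO, 1971 genes were called, 3284 with DESeq2, and 911 to 2017 with 1 clone, replicate number or library left out; members called ranged from 3 (without control clone 10) to 6. With JQ1 the count was 1765, 2908 with DESeq2 and 731 to 1771 with samples left out, and members called were 3 without the variance trend and 1 (without control clone 10) to 6 with samples left out. For JQ1 in control clones 7901 genes were called, and 5153 (without control clone 10) to 8452 with samples left out. The difference in response also changed: from 235 genes it went to 155 and 679 with pseudocounts of 0.5 and 10, 793 with a mean of at least 50, 49 on FPKM, 985 with edgeR, 1769 with DESeq2, 76 with the left-out library included, and 0 to 247 with samples left out. The count was 0 without control clone 3, control clone 10 or knockout clone 15 (limma, with 2856, 2632 and 3153 genes at an unadjusted p under 0.05), 1 without control clone 13, 98 without clone 12, 109 without clone 2-1, and 150 without replicate 2 of knockout clone 12 with JQ1. Members called there were 1 with a mean of at least 50, 2 with edgeR and 3 with DESeq2. Among control clones, members called were 4 on FPKM and 4 to 8 with libraries left out. The cause of these changes was not tested. Of 116 calls of named list genes, 84 held in all fits without a clone and 32 were lost in at least 1. The median change with JQ1 over all genes in knockout clones was -0.05 on the log2 scale, and -0.11 with equal library totals.

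The values that turned sign were all in IER2, JUNB, FOSB, FOSL2 and JUN. On FPKM they were IER2 between genotypes with DMSO (0.014) and FOSB with JQ1 in control clones (-0.055). With the left-out library included they were the changes with JQ1 in knockout clones of FOSB (0.24) and FOSL2 (0.065). The latter also turned with TMM (0.00020), edgeR (0.023) and DESeq2 (0.0069), and the JUN difference in response with edgeR (0.0037). With samples left out, the range was -0.19 to 0.061 for IER2 between genotypes with DMSO, -0.58 to 0.14 for JUNB between genotypes with JQ1, and -0.043 to 0.31 for FOSL2 with JQ1 in control clones. In knockout clones the change with JQ1 ran from -0.26 to 0.093 for FOSB, -0.24 to 0.42 for FOSL2 and -0.015 to 0.80 for JUNB. The difference in response ran from -0.42 to 0.24 for FOSL2 and from -0.24 to 0.25 for JUN.

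Deviations of same-numbered libraries with DMSO and JQ1 within a clone had r from -0.10 to 0.10 (17 pairs, 0 over 0.1). Between clones, 8 of 85 same-numbered pairs of 1 treatment were over 0.1 (median 0.0042), and 13 of 170 pairs with different numbers (median -0.0013). The numbers were therefore not taken to pair libraries. Treating single libraries as replicates, which counts libraries of a clone as independent, gave 11616 genes for knockout against control with DMSO, 11535 with JQ1 and 7459 for the difference in response, and with a replicate block 11640, 11536 and 7415. Members called with JQ1 and for the difference in response were 10 and 8, with and without the replicate block. Low counts limit FOS and FOSB in control clones with DMSO and FOSL1 in control clones with JQ1.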
